A study of Danio rerio with 6 samples.

Results

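The 6 genes described here are named for enzymes, or an enzyme family, that turn cholesterol into bile acids: *cyp7a1*, *hsd3b7*, *cyp8b1*, *cyp27a7*, *cyp27a1.4* and *cyp27a1.2*. They were taken by name, as every deposited row called *cyp7a1*, *cyp8b1*, *hsd3b7* or *baat* or with a name that starts with *cyp27a*, which gave 6 of the 25281 genes listed. No row was named *baat*, the gene for the enzyme that joins bile acids to an amino acid. RNA was sequenced from dissected livers of *Tg*(*fabp10a:pt-β-catenin*) zebrafish larvae, 3 libraries from larvae kept in DMSO and 3 from larvae given 1 μM GW7647, an agonist of the nuclear receptor PPARα, for 2 days from 13 to 15 dpf (days post-fertilization). Larvae of both groups carried the transgene, a stable *Xenopus* β-catenin driven by the hepatocyte-specific *fabp10a* promoter, which damages hepatocytes so that biliary epithelial cells (BECs) and surviving hepatocytes become liver progenitor cells (LPCs). Each library was made from livers pooled over many larvae, larvae were not fed during the treatment, and no group without the transgene was sequenced, so no value below says what a level is in an undamaged liver.

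The livers make bile acids, and in zebrafish mainly bile alcohol sulphates, to carry off cholesterol and to take up dietary fat. In mammals Cyp7a1 opens the classic pathway by adding a hydroxyl group to the cholesterol ring and sets its rate, Hsd3b7 then oxidizes the ring, Cyp8b1 adds the hydroxyl group that separates cholic from chenodeoxycholic acid, and Cyp27a1 oxidizes the side chain, also as the first step of an alternative pathway. Bile acids bind the receptor Fxr (*nr1h4*), which induces the repressor Shp (*nr0b2a*) and the hormone Fgf19, and both lower the transcription of mammalian *Cyp7a1*. Which of the zebrafish *cyp27a* copies does what in the pathway is not taken as known here.

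All 6 genes had enough reads to be tested, *cyp7a1* and *cyp27a7* rose in GW7647-treated livers, *hsd3b7* fell, and *cyp8b1*, *cyp27a1.4* and *cyp27a1.2* did not pass the test. Called genes are those that changed at least 1.5-fold with an adjusted p of at most 0.05 (edgeR's quasi-likelihood test, Benjamini-Hochberg over 15705 tested genes), which 2 of the 6 did upwards and 0 downwards. With the replicate number as a block, by which the libraries were taken to be paired, *cyp8b1* was called as well, which made 3 members called higher and 0 lower. Among all tested genes 3.39% were called higher (533) and 2.62% lower (412). With the replicate number as a block these counts were 669 higher and 699 lower. Without the threshold on fold change 3 of the 6 passed, beside 9.06% of all tested genes. The GW7647 values of 2 genes lay wholly above the DMSO values and those of 1 gene wholly below, against 15.7% and 15.3% of all tested genes. The median log2 fold change of the 6 was 0.36, and that of all tested genes was -0.01. With 3 libraries a group the p-values measure the spread between these libraries, which the labels do not tie to separate clutches, and in pooled tissue fewer cells of a type and less RNA per cell cannot be told apart.

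The libraries held 19961881 to 25224356 reads on exons. Hepatocyte markers were abundant in all 6, with a summed level over 18 markers of 45539 to 48022 CPM (reads as a share of the library total, scaled by TMM) in DMSO and 75522 to 82689 CPM in GW7647. Of these 18 markers, 11 were called higher and 0 lower, beside 3.39% and 2.62% of all tested genes. Their median log2 fold change was 0.68. The promoter gene *fabp10a* was lower, by less than 1.5-fold (2386 ± 147 to 1862 ± 129 CPM, SD, n = 3, edgeR log2 fold change -0.36, adjusted p = 0.0496). That pass was narrow. Over the 16 alternatives *fabp10a* ranged from -0.58 to -0.30, with an adjusted p of 0.0056 to 0.18. Of 11 tested biliary and progenitor markers, 0 were called higher and 2 lower, beside the same 3.39% and 2.62% of all tested genes. The 2 were *epcam* (-0.62, adjusted p = 0.022 in edgeR) and *cldn7b* (-0.85, adjusted p = 0.032 in edgeR). However, *epcam* was not called without DMSO replicate 2 or GW7647 replicate 1 or 3 (adjusted p = 0.066 to 0.069 in edgeR). Nor was *cldn7b* called without DMSO replicate 1 or 2 or GW7647 replicate 2 (adjusted p = 0.059 to 0.099 in edgeR). The sum of the biliary and progenitor markers was 12995 to 14566 CPM in DMSO and 11248 to 11780 CPM in GW7647. The bile acid genes therefore moved in libraries where hepatocyte markers were higher as well, and the part of cell composition in the results below was not tested.

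*cyp7a1* (chromosome 2, 22150134 to 22152797, minus strand, 6 exons; positions are those of the deposited tables, whose genome build is not given in the sources used here) rose most of the 6. Its level was 76.8, 60.4 and 90.9 CPM in DMSO replicates 1 to 3 and 198, 195 and 144 CPM in GW7647 replicates 1 to 3. The lowest GW7647 library, replicate 3, was above the highest DMSO library, also replicate 3, so the groups did not overlap. The mean went from 76.1 ± 15.3 to 179 ± 30.3 CPM (SD, n = 3), a 2.35-fold rise with an edgeR log2 fold change of 1.23 ± 0.17 (SE) and an adjusted p of 0.0041. Counted between libraries of the same replicate number, the log2 difference was 1.36, 1.69 and 0.66. Between 1412 and 4024 exon reads stood behind each value, all of them mapped to 1 place, and 41.3% to 42.7% of them crossed an exon junction. The gene was called under all 16 alternative settings, with log2 fold changes of 1.01 to 1.39.

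*hsd3b7* (chromosome 3, 32743946 to 32778250, plus strand, 9 exons), which encodes the enzyme after Cyp7a1 in the classic pathway, fell. Its level was 142, 137 and 137 CPM in DMSO and 111, 94.9 and 87.5 CPM in GW7647. The DMSO libraries were nearly equal, and each GW7647 library was below all of them. The mean went from 139 ± 2.77 to 98.0 ± 12.2 CPM (SD, n = 3), which is 1.42-fold lower and so short of the fold-change threshold, with an edgeR log2 fold change of -0.50 ± 0.11 (SE) and an adjusted p of 0.022. The same-number log2 differences were -0.35, -0.53 and -0.65. The direction was the same under all 16 alternatives, but the adjusted p was 0.053 to 0.088 when any of 5 libraries was left out (each DMSO library and GW7647 replicates 2 and 3), and 0.018 without GW7647 replicate 1, when the gene was called lower. It was also called lower without a scaling factor (-0.73, adjusted p = 0.0043 in edgeR). With the replicate number as a block it passed the p threshold under 1.5-fold (-0.51, adjusted p = 0.0039 in edgeR), as it did with DESeq2 (-0.50, adjusted p = 0.0011). All its exon reads were mapped to 1 place, and the genes of the same family named *hsd3b1* and *hsd3b2* had 0 to 2 exon reads in every library.

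*cyp8b1* (chromosome 2, 3435888 to 3437862, minus strand, a single exon) was higher in the GW7647 library of every replicate number, but its groups overlapped. Its level was 80.1, 47.4 and 47.7 CPM in DMSO and 137, 81.2 and 79.2 CPM in GW7647. Replicate 1 was the highest library of both groups, and DMSO replicate 1 lay between GW7647 replicates 2 and 3. The means were 58.4 ± 18.8 and 99.2 ± 33.0 CPM (SD, n = 3), the edgeR log2 fold change was 0.76 ± 0.26 (SE) and the adjusted p was 0.107. The same-number log2 differences were close to each other at 0.78, 0.78 and 0.73. With the replicate number as a block the gene was called, with a log2 fold change of 0.76 and an adjusted p of 2.7e-04 in edgeR. It was also called by DESeq2 (0.76, adjusted p = 0.019) and without DMSO replicate 1 (1.06, adjusted p = 0.033 in edgeR), and the log2 fold change was 0.46 without GW7647 replicate 1. Of its exon reads, 92.3% to 94.3% were mapped to 1 place.

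Neighbours of *cyp8b1* on chromosome 2 carry the names *cyp8b2* (3452590 to 3454556) and *cyp8b3* (3468069 to 3470019), both on the plus strand, and were read at a far lower level. *cyp8b2* had 30, 20 and 30 exon reads in DMSO and 64, 44 and 40 in GW7647, and *cyp8b3* had 20, 6 and 17 in DMSO and 33, 31 and 28 in GW7647. Both genes had every GW7647 library above every DMSO library, and neither passed the test. The edgeR log2 fold change was 1.03 ± 0.33 (adjusted p = 0.088) for *cyp8b2* and 1.22 ± 0.41 (adjusted p = 0.106) for *cyp8b3*. With the replicate block *cyp8b2* was called (1.01, adjusted p = 0.034 in edgeR). Parts of their reads could be shared with *cyp8b1*, since 88.8% of those of *cyp8b2* and 74.4% of those of *cyp8b3* were mapped to 1 place in DMSO.

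**Figure D1:**
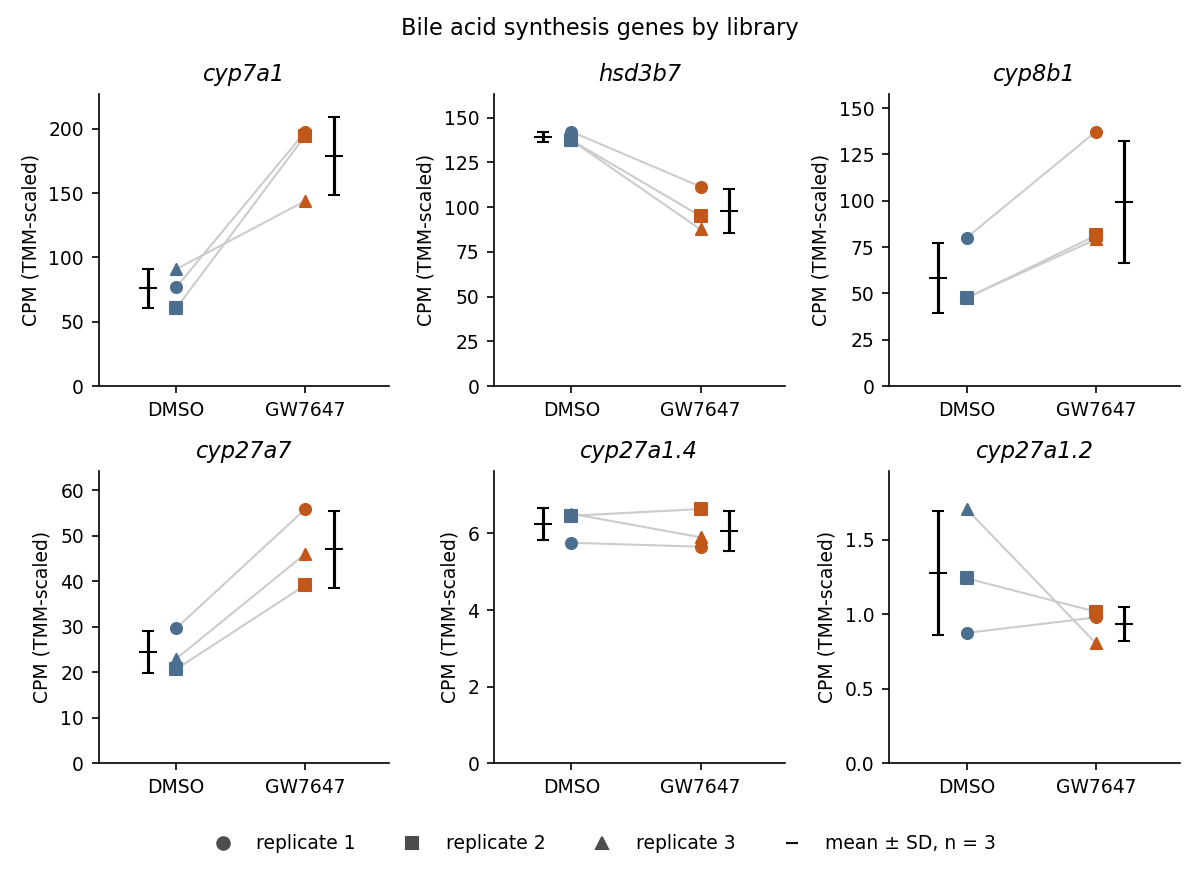
Level of each of the 6 genes in every library, in CPM scaled by TMM, with a vertical axis from 0 in each panel. Points are libraries (shape gives the replicate number, grey lines join equal numbers) and bars beside them are the mean ± SD of 3. *cyp7a1* (76.1 to 179 CPM) and *cyp27a7* (24.5 to 47.0 CPM) have all GW7647 libraries above all DMSO libraries, *hsd3b7* (139 to 98.0 CPM) has them all below, and the other 3 panels overlap.

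Of the 3 genes named *cyp27a*, *cyp27a7* (chromosome 9, 38408991 to 38419140, plus strand, 9 exons) was the 1 that rose. Its level was 29.7, 20.7 and 23.0 CPM in DMSO and 55.9, 39.2 and 46.03 CPM in GW7647. The GW7647 libraries were all above the DMSO libraries, and replicate 1 was the highest of each group, as it was for *cyp8b1*. The mean went from 24.5 ± 4.67 to 47.0 ± 8.39 CPM (SD, n = 3), 1.92-fold higher, with an edgeR log2 fold change of 0.94 ± 0.17 (SE) and an adjusted p of 0.011. The same-number log2 differences were 0.91, 0.92 and 1.00. It was called under all 16 alternatives, with log2 fold changes of 0.68 to 1.11.

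The next gene on the same strand, *cyp27a1.2* (38420012 to 38425491), had the lowest level of the 6 genes. It had 19, 29 and 39 exon reads in DMSO and 18, 21 and 19 in GW7647, or 0.87 to 1.70 CPM against 0.81 to 1.02 CPM. The ranges overlapped, with an edgeR log2 fold change of -0.45 ± 0.31 (SE) and an adjusted p of 0.41. *cyp27a1.4* (38446504 to 38457413) had 125, 151 and 149 reads in DMSO and 104, 137 and 139 in GW7647, which is 5.75 to 6.51 CPM against 5.65 to 6.63 CPM. Its groups overlapped almost fully (-0.04 ± 0.14, adjusted p = 0.89 in edgeR), and without GW7647 replicate 1 the sign of the difference turned (0.0073, adjusted p = 0.99). Of the exon reads in DMSO, 77.0% of those of *cyp27a1.2* and 81.9% of those of *cyp27a1.4* were mapped to 1 place, so reads of these copies could be placed on each other, while the share was 98.7% to 99.6% for *cyp27a7* over the 6 libraries.

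The makeup of this trio therefore differed between the groups. *cyp27a7* held 77.4%, 67.3% and 68.2% of their summed RPKM (reads scaled by exon length and library total, as deposited) in DMSO and 86.6%, 79.7% and 84.0% in GW7647. The GW7647 shares were all above the DMSO shares, with means of 71.0% ± 5.61 and 83.4% ± 3.49 (SD, n = 3). The share of *cyp27a1.4* went from 24.1% ± 4.04 to 14.4% ± 3.10 and that of *cyp27a1.2* from 4.95% ± 1.83 to 2.20% ± 0.434, both without overlap. Each of these shares had a two-sided exact permutation p of 0.1, the smallest that 3 against 3 libraries allow, and 0.15 after adjustment over 6 such ratios and shares. The shares of a library add up to a whole, so a rise of *cyp27a7* alone lowers the other shares. They are therefore no further evidence that any of these genes moved.

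Outside the naming rule, the table of Ensembl identifiers and symbols gives *cyp27a* names to 3 more genes that the deposited tables list otherwise, and 1 of them rose more than any of the 6. This gene, listed as *si:dkey-91i10.3* and named *cyp27a3* by its identifier (chromosome 9, 23009608 to 23023288, plus strand), lies apart from the cluster that holds *cyp27a7*. Its level was 9.57, 9.58 and 11.3 CPM in DMSO and 29.3, 37.6 and 41.7 CPM in GW7647. The groups were far apart, and the edgeR log2 fold change was 1.83 ± 0.15 (SE) with an adjusted p of 2.2e-04. It was called under all 16 alternatives (1.43 to 1.97).

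The relative with the highest level, *si:ch211-113j14.1* (*cyp27a2* by its identifier; chromosome 6, 9471367 to 9529217, minus strand), had 106, 94.9 and 96.4 CPM in DMSO and 139, 121 and 102 CPM in GW7647. Its groups overlapped, since GW7647 replicate 3 was below DMSO replicate 1, and it did not pass the test (0.28 ± 0.12, adjusted p = 0.19 in edgeR). The remaining relative, listed as *CYP27A1 (1 of many)* (chromosome 9, 38427572 to 38433916, plus strand, between *cyp27a1.2* and *cyp27a1.4*), had 10.4 to 12.0 CPM in DMSO and 10.7 to 11.7 CPM in GW7647. It did not pass the test either (0.04 ± 0.12, adjusted p = 0.87 in edgeR), and it has no steady direction, being below 0 under 5 of 16 alternatives.

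**Figure D2:**
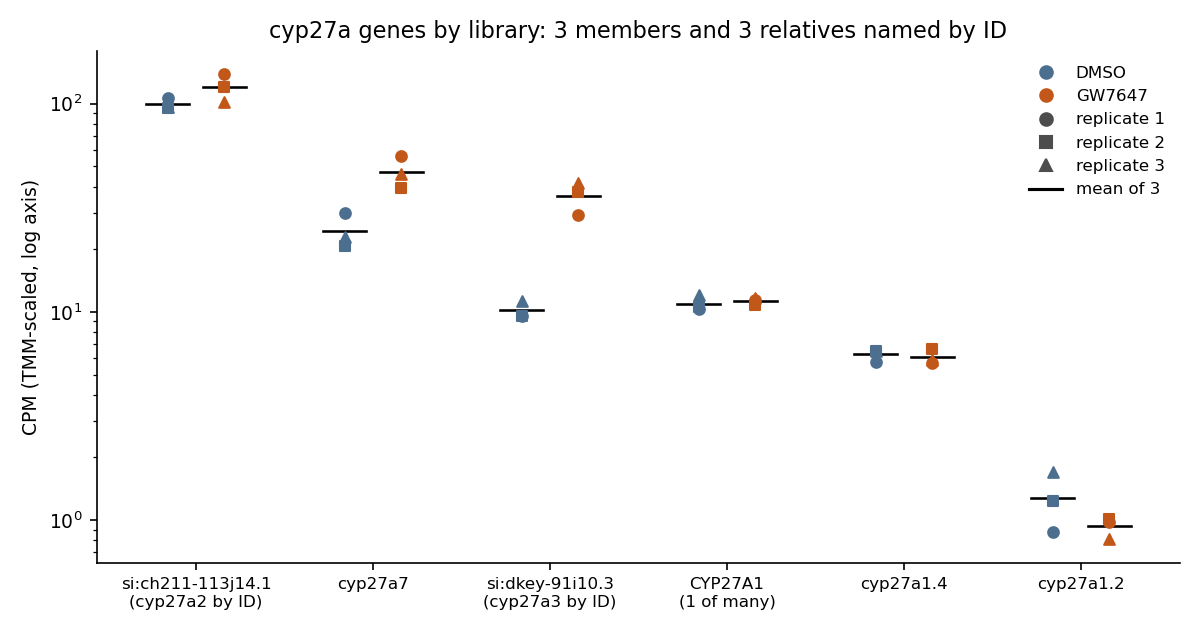
Level of 6 *cyp27a* genes in every library, in CPM scaled by TMM on a log axis: the 3 members *cyp27a7*, *cyp27a1.4* and *cyp27a1.2* and 3 relatives named only by their Ensembl identifier. Points are libraries and horizontal lines the means of 3. The groups are apart for *cyp27a7* (24.5 to 47.0 CPM) and *si:dkey-91i10.3* (10.2 to 36.2 CPM) and overlap for the other 4.

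Per exon length, which lets genes be set beside each other, the order of the 6 changed at the top. In DMSO, *hsd3b7* had the highest level (72.7 ± 2.33 RPKM, SD, n = 3), followed by *cyp7a1* (37.4 ± 8.29 RPKM), *cyp8b1* (28.8 ± 9.40 RPKM), *cyp27a7* (10.04 ± 2.01 RPKM), *cyp27a1.4* (3.34 ± 0.233 RPKM) and *cyp27a1.2* (0.683 ± 0.232 RPKM). The ranges of *cyp7a1* and *cyp8b1* overlapped, and every other pair of neighbours in this order was apart in all 3 libraries. In GW7647, *cyp7a1* came first (75.7 ± 12.5 RPKM), *hsd3b7* (44.2 ± 4.46 RPKM) and *cyp8b1* (42.0 ± 12.7 RPKM) overlapped, and the *cyp27a* genes followed in the same order as before. Among the 15705 tested genes, the DMSO level of *hsd3b7* ranked 803 from the top, that of *cyp7a1* 1482 and that of *cyp8b1* 1874, while *cyp27a1.2* ranked 13390.

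The exchange of places between *cyp7a1* and *hsd3b7* was seen in each library, and it does not depend on how libraries are scaled because both genes are read in the same library. The ratio of their RPKM was 0.506, 0.412 and 0.620 in DMSO and 1.66, 1.92 and 1.54 in GW7647. On the log2 scale the mean ratio went from -0.98 ± 0.30 to 0.77 ± 0.16 (SD, n = 3), a difference of 1.75 with no overlap of the groups. The two-sided exact permutation p was 0.1, the smallest possible, and 0.15 after adjustment over the 6 ratios and shares, and the difference was 1.60 to 1.90 when single libraries were left out. Since both genes enter the ratio with the values above, it is no further evidence that either of them moved.

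The ratios of *cyp7a1* to the other members differed less. The log2 ratio to *cyp8b1* was 0.40 ± 0.50 in DMSO and 0.88 ± 0.37 in GW7647 (SD, n = 3), with overlapping groups and an exact permutation p of 0.3. The log2 ratio to the summed *cyp27a* members was 1.39 ± 0.26 and 1.92 ± 0.30, also overlapping (exact permutation p = 0.2, adjusted 0.24). With the 3 relatives in the sum, that log2 ratio was -1.01 ± 0.26 in DMSO and -0.28 ± 0.19 in GW7647 (SD, n = 3). The difference was then 0.73 instead of 0.53, and the groups did not overlap (exact permutation p = 0.1, the smallest possible). In this larger sum *si:ch211-113j14.1* held 67.0% in DMSO and 56.9% in GW7647, and *cyp27a7* held 13.5% and 18.2%.

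**Figure D3:**
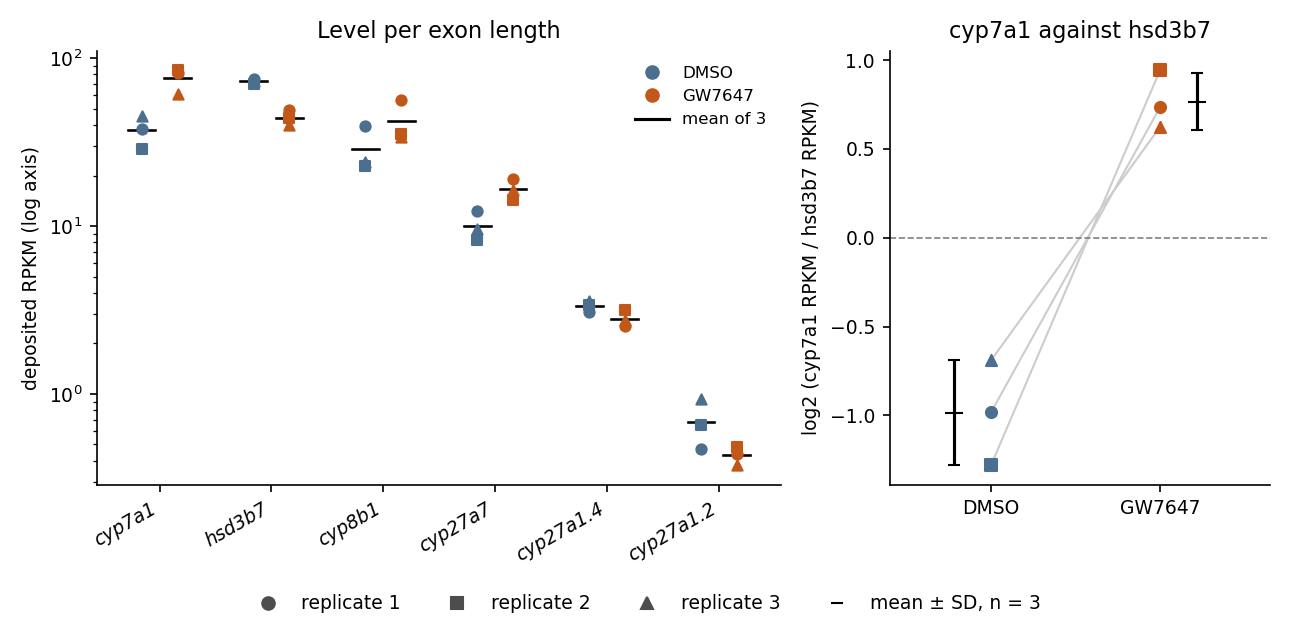
Left, deposited RPKM of the 6 genes in each library on a log axis, with the mean of 3 as a line. Right, log2 of the ratio of *cyp7a1* to *hsd3b7* RPKM in each library (grey lines join equal replicate numbers, bars are the mean ± SD of 3, the dashed line is equal RPKM). The ratio is below equal RPKM in all 3 DMSO libraries (mean -0.98) and above it in all 3 GW7647 libraries (mean 0.77).

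Across the 6 libraries, log2 CPM of *cyp27a7* went along with that of *cyp8b1* (Pearson r = 0.92, n = 6) and of *cyp7a1* (r = 0.89, n = 6), and *cyp7a1* ran against *hsd3b7* (r = -0.80, n = 6). These values are descriptions over 2 groups of 3 libraries and mostly repeat the difference between the groups. The 5 tested genes whose log2 CPM was most like that of *cyp7a1* over the 6 libraries were *scaf4a* (r = 0.998), *ireb2* (r = 0.997), *sec24a* (r = 0.997), *SLC25A29* (r = 0.996) and *gdpd1* (r = 0.996). They share a lower value in replicate 3 than in replicates 1 and 2 of GW7647 and a low value in DMSO replicate 2. Their size of change was unlike that of *cyp7a1*, as the log2 fold change was 0.18 for *scaf4a* and 0.60 for *sec24a*.

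In the mammalian pathway the side chain is shortened in peroxisomes after the ring has been altered. How far the genes below serve the bile alcohols of zebrafish was not tested. A list of side-chain, alternative-pathway and conjugation genes had 37 entries, of which 35 were found and 30 tested. Of these, 10 were called higher and 1 lower, beside 3.39% and 2.62% of all tested genes. Their median log2 fold change was 0.39, against -0.01 over all tested genes. Many of these enzymes also serve the peroxisomal oxidation of fatty acids.

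The peroxisomal genes among them included *abcd3a*, whose product brings bile acid precursors into the peroxisome in mammals. It had 151, 164 and 167 CPM in DMSO and 316, 326 and 322 CPM in GW7647, a narrow spread with wide separation (1.00 ± 0.09, adjusted p = 3.5e-04 in edgeR). *hsd17b4*, the bifunctional enzyme of the peroxisomal side-chain cycle, had the largest rise of the list (56.8, 43.3 and 68.7 CPM to 122, 109 and 122 CPM, log2 fold change 1.06, adjusted p = 0.0051 in edgeR). Its groups were also apart.

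Single genes of the steps before and after it rose as well. *slc27a2b*, listed as *zgc:101540*, a very long-chain acyl-CoA synthetase that in mammals activates the precursors, rose by 1.01 on the log2 scale (adjusted p = 0.0041 in edgeR). *amacr*, the racemase that sets the form of the side chain, rose by 0.86 (adjusted p = 0.0070 in edgeR). The acyl-CoA oxidase gene *acox3* rose by 0.75 (adjusted p = 0.0031 in edgeR), and *scp2a*, whose product holds the thiolase that ends the cycle, went from 297 ± 42.8 to 570 ± 61.2 CPM (SD, n = 3, log2 fold change 0.94, adjusted p = 0.0042 in edgeR). Other copies at these steps did not pass the test, with log2 fold changes of 0.52 for *slc27a2a* (adjusted p = 0.082), 0.23 for *scp2b* (adjusted p = 0.17) and 0.28 for *abcd3b* (adjusted p = 0.24 in edgeR). Without GW7647 replicate 3 *slc27a2a* was called higher (0.67, adjusted p = 0.034 in edgeR). *acox3* was short of 1.5-fold under 3 of the 16 alternatives and *amacr* under 1, with lowest log2 fold changes of 0.49 and 0.52.

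The list also holds genes for cholesterol supply, ring reduction and sulphation. The cholesterol carrier gene *stard4* rose by 0.61 on the log2 scale, a steroid reductase gene, *srd5a2a*, by 0.95, and the sulphotransferase gene *sult2st1* by 0.74 (adjusted p = 0.013, 0.013 and 0.014 in edgeR). *sult2st2*, at 279 ± 13.6 CPM (SD, n = 3) in DMSO, passed the test below 1.5-fold (0.50, adjusted p = 0.020 in edgeR). Other genes of these kinds did not pass: *sult5a1* (-1.37, adjusted p = 0.085) and *stard3* (-0.24, adjusted p = 0.20) had all GW7647 libraries below all DMSO libraries, and *srd5a1* (0.69, adjusted p = 0.059) and *stard5* (0.70, adjusted p = 0.094 in edgeR) had them all above. With the replicate block *srd5a1* (adjusted p = 0.022) and *stard5* (adjusted p = 0.035 in edgeR) were called higher, as they were without GW7647 replicate 1 (*srd5a1*, adjusted p = 0.026) and without DMSO replicate 3 (*stard5*, adjusted p = 0.047). *sult2st1* was not called under 4 of the 16 alternatives, among them without GW7647 replicate 2. *stard4* was not called under 6, among them without DMSO replicate 1 or GW7647 replicate 2. Their lowest log2 fold changes were 0.49 and 0.38. *sult5a1* was called lower under 2 of the 15 alternatives that tested it.

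The 1 gene of the list that fell was *ch25h*, which makes an oxysterol, a hydroxylated cholesterol derivative. It had 5.94, 3.59 and 3.36 CPM in DMSO and 1.196, 0.581 and 1.32 CPM in GW7647, with 12 to 31 reads in the latter. All GW7647 libraries were below all DMSO libraries (-2.05 ± 0.34, adjusted p = 0.0090 in edgeR), and the gene was called lower under all 16 alternatives. *cyp7b1*, the hydroxylase that acts on oxysterols, had 20.7 ± 2.65 CPM in DMSO and 19.7 ± 0.445 CPM in GW7647 (SD, n = 3) and did not pass the test (adjusted p = 0.75 in edgeR), and neither did any of the *cyp46a1* copies, genes for another oxysterol-forming enzyme.

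Of 34 listed regulators of bile acid synthesis, 33 were found and 29 tested, with a median log2 fold change of 0.33. Among those tested 3 were called higher and 1 lower, beside 3.39% and 2.62% of all tested genes. The 1 that fell was *nr0b2a*, the Shp gene. It had 21.9, 17.6 and 11.8 CPM in DMSO and 6.36, 9.78 and 6.87 CPM in GW7647. The highest GW7647 library, replicate 2, was below the lowest DMSO library, replicate 3, and the edgeR log2 fold change was -1.16 ± 0.24 (SE) with an adjusted p of 0.021. The adjusted p was 0.066 to 0.072 without DMSO replicate 2, GW7647 replicate 1 or GW7647 replicate 3.

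Upstream of it, the Fxr gene *nr1h4* passed the test with a change under 1.5-fold (68.2 ± 5.10 to 88.3 ± 6.88 CPM, SD, n = 3, log2 fold change 0.37, adjusted p = 0.0495 in edgeR). That pass was narrow, since the adjusted p was 0.052 to 0.14 with any single library left out and 0.29 without a scaling factor, where the log2 fold change was 0.15. *fgf19* had 7.92, 9.32 and 10.7 CPM in DMSO and 11.2, 18.8 and 15.3 CPM in GW7647. Its groups did not overlap, but it missed the threshold (0.70 ± 0.19, adjusted p = 0.058 in edgeR). It was called under 4 of the 16 alternatives, among them the replicate block (0.68, adjusted p = 0.0073 in edgeR). *fgf19* is known as a gene of intestine as well as liver, and 6 intestinal markers summed to 34.1 to 76.8 CPM in DMSO and 96.1 to 142 CPM in GW7647, led by *fabp2* (37.5 ± 15.98 to 79.9 ± 15.4 CPM, SD, n = 3, adjusted p = 0.056 in edgeR). Most of the rest of the sum was *fabp1b.1* (19.5 ± 6.92 to 27.1 ± 11.9 CPM, SD, n = 3), while other markers were near the floor. *vil1* had 15 to 42 exon reads a library and *cdx1b* 0 to 6, too few to be tested. All 5 tested intestinal markers were higher (median log2 fold change 0.58), and 0 were called in edgeR, beside 3.39% of all tested genes called higher. With the replicate block 2 of the 5 were called higher, beside 669 of all 15705 tested genes. *fabp2* was 1 of these 2 (1.17, adjusted p = 0.0034 in edgeR). In all, *fabp2* was called under 4 of the 16 alternatives, among them without DMSO replicate 1 or 2 (adjusted p = 0.045 and 0.040 in edgeR). The part of intestinal RNA in the *fgf19* values was not tested.

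The regulators that rose were *hnf4a* and *hnf4b*, hepatocyte receptors of which mammalian Hnf4a activates the *Cyp7a1* and *Cyp8b1* promoters, and *klf15*, a zinc-finger factor of liver metabolism. *hnf4b* had 24.3, 21.6 and 21.5 CPM in DMSO and 54.5, 45.997 and 37.3 CPM in GW7647, with a log2 fold change of 1.03 ± 0.14 (adjusted p = 0.0037 in edgeR). *klf15* rose by 0.94 (adjusted p = 0.0050) and *hnf4a* by 0.66 (adjusted p = 0.023 in edgeR), the latter from 104 ± 17.5 to 164 ± 20.3 CPM (SD, n = 3). *hnf4a* was not called under 7 of the 16 alternatives. These were no scaling factor, limma on RPKM, limma on TPM, and leaving out any of 4 of the 6 libraries. The 4 were DMSO replicates 1 and 2 and GW7647 replicates 1 and 2 (adjusted p = 0.060 to 0.073 in edgeR). The receptor gene *pparaa* itself had 11.3 ± 1.34 and 9.23 ± 0.791 CPM (SD, n = 3) and did not pass the test (-0.29, adjusted p = 0.22 in edgeR).

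Clock-linked repressors, which in mouse act on bile acid synthesis over the day, differed among the libraries of a group. *nr1d1* had 71.0, 83.6 and 188 CPM in DMSO and 170, 129 and 176 CPM in GW7647, and *nr1d2a* had 49.6, 99.0 and 133 CPM in DMSO and 139, 152 and 116 CPM in GW7647. Both were lowest in DMSO replicate 1 and overlapped between the groups (log2 fold change 0.47, adjusted p = 0.41, and 0.53, adjusted p = 0.30, in edgeR), though *nr1d1* was called higher without DMSO replicate 3 (1.04, adjusted p = 0.013). DMSO replicate 3, the highest of its group for both, was also the highest DMSO library for *cyp7a1*, whose lowest DMSO library was replicate 2. In GW7647, replicate 3 was the lowest library for *cyp7a1* and *nr1d2a* but the highest for *nr1d1*. Another listed gene of this kind, *nr1d2b*, had 57.6, 63.3 and 79.1 CPM in DMSO and 79.3, 81.1 and 90.8 CPM in GW7647. Its lowest GW7647 value was just above its highest DMSO value, and it did not pass the test (0.33, adjusted p = 0.15 in edgeR). The part of the hour of sampling in these values was not tested, and the labels give no hour.

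Transport genes went both ways. Of 12 listed, 11 were found and 6 tested, with a median log2 fold change of 0.02. Among those tested 1 was called higher and 1 lower, beside 3.39% and 2.62% of all tested genes. *slco1d1*, an uptake carrier, had 491, 376 and 432 CPM in DMSO and 1046, 840 and 755 CPM in GW7647, with the groups apart (1.02 ± 0.15, adjusted p = 0.0045 in edgeR). The export pump gene *abcb11a* fell, from 8.38, 4.28 and 5.64 CPM in DMSO to 1.47, 3.05 and 1.87 CPM in GW7647 (-1.51 ± 0.32, adjusted p = 0.022 in edgeR). Its groups did not overlap, but the adjusted p was 0.052 to 0.077 without DMSO replicates 1 or 3 or GW7647 replicates 1 or 3.

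The other copy of the pump, *abcb11b*, was far more abundant, with 314 ± 79.5 CPM in DMSO and 280 ± 56.9 CPM in GW7647 (SD, n = 3). Its groups overlapped and it did not pass the test (-0.16, adjusted p = 0.68 in edgeR). *slc51a*, part of the basolateral export carrier, had every GW7647 library below every DMSO library (881 ± 52.7 to 703 ± 57.9 CPM, SD, n = 3) and missed the threshold (-0.33, adjusted p = 0.076 in edgeR). *slc10a1*, the main uptake carrier of mammalian hepatocytes, had 0 to 3 exon reads in each library, which is at the limit of detection.

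**Figure D4:**
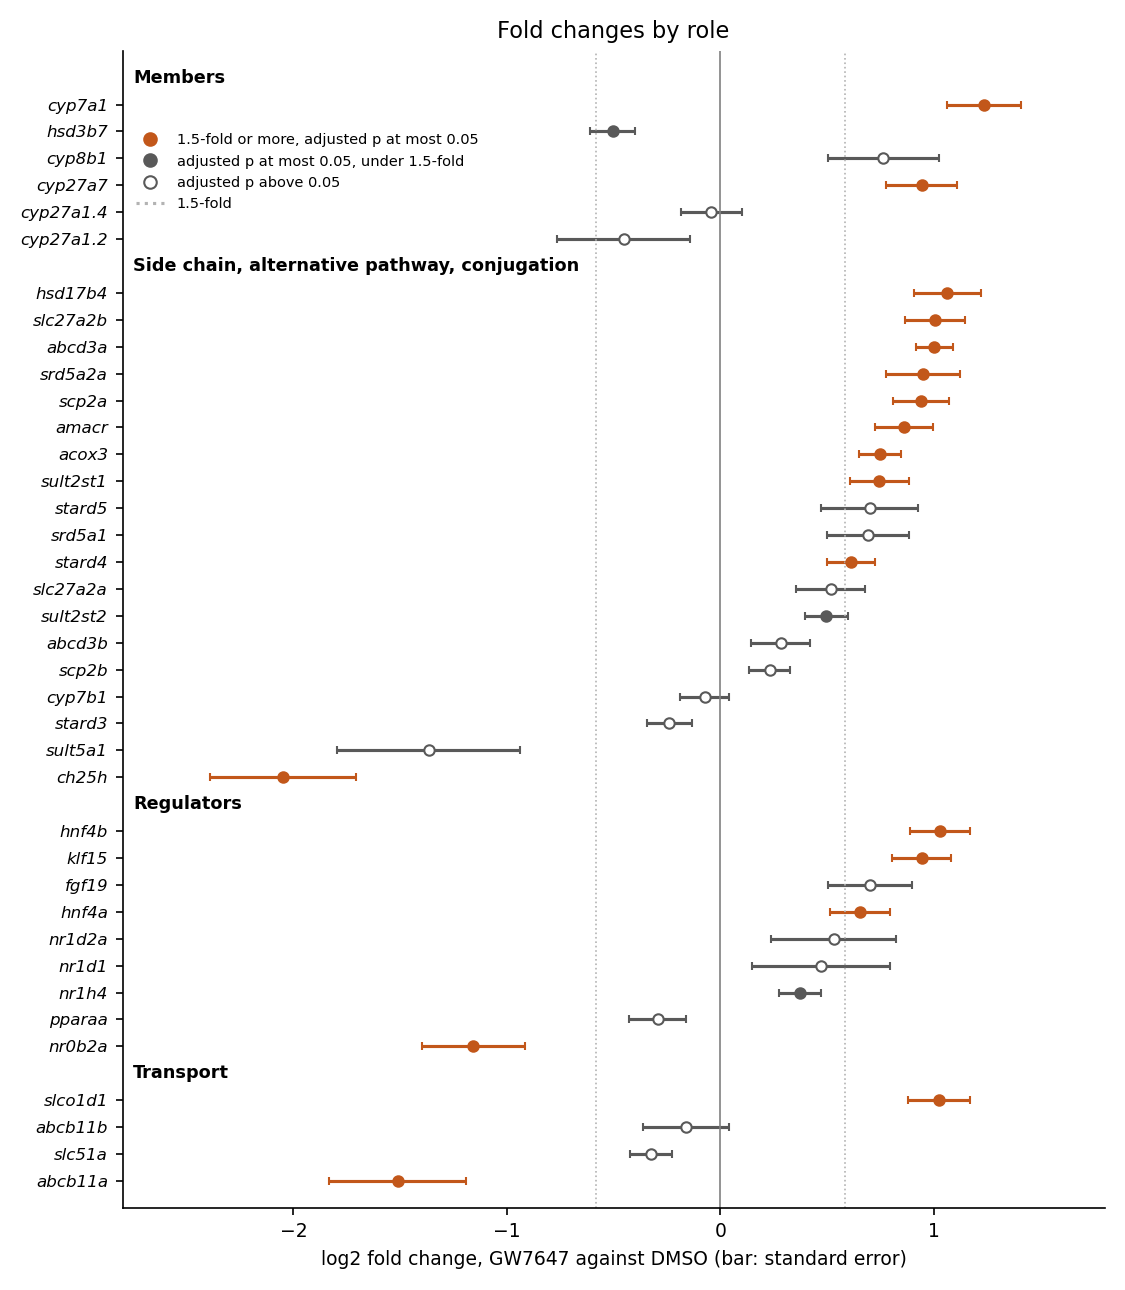
Log2 fold change (GW7647 against DMSO, edgeR, bars are standard errors) of the 6 members and of the genes named from the lists (without *nr1d2b*), grouped by role. Orange points are genes called at 1.5-fold or more (dotted lines) with an adjusted p of at most 0.05, grey filled points passed the p threshold only, and open points did not pass. *slc27a2b* is listed as *zgc:101540* in the deposited tables. The called genes of the peroxisomal side-chain steps lie between 0.75 and 1.06, their copies *scp2b* (0.23) and *abcd3b* (0.28) lie below, and *nr0b2a* (-1.16), *abcb11a* (-1.51) and *ch25h* (-2.05) are on the other side of 0.

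**Figure D5:**
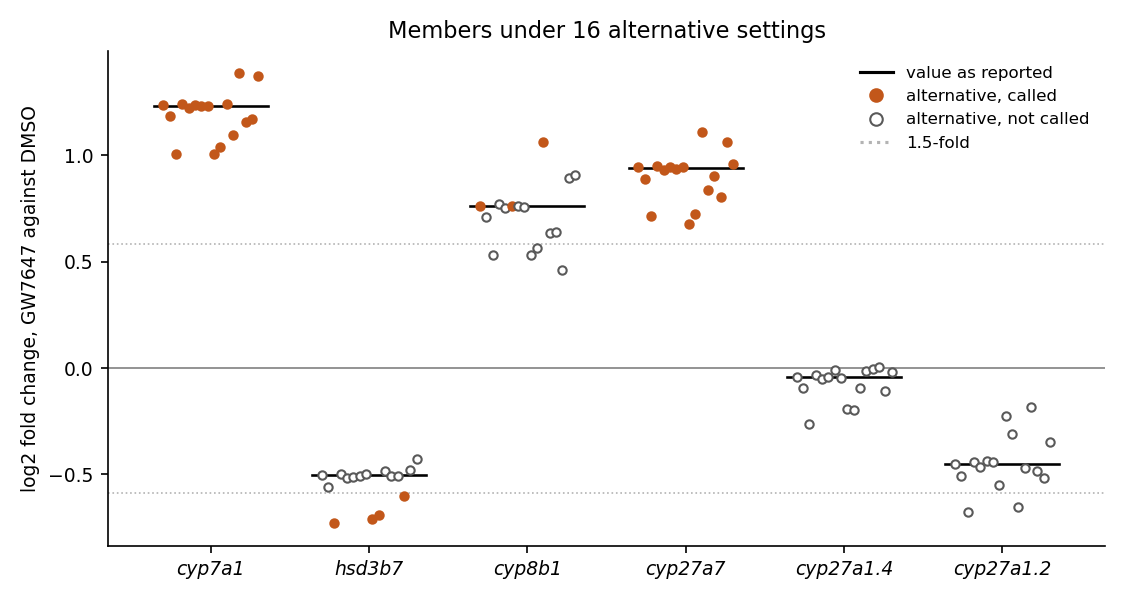
Log2 fold change of the 6 members under 16 alternative settings (points, orange where called) beside the value given in the text (line), with dotted lines at 1.5-fold. *cyp7a1* (1.01 to 1.39) and *cyp27a7* (0.68 to 1.11) are called throughout, *cyp8b1* under 3 alternatives and *hsd3b7* under 4.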

How the data were processed

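The authors mapped paired reads of poly(A) RNA libraries (a stranded kit; the strand setting of the counting is not given in the sources used here) with CLC Genomics Workbench and deposited 1 table a library. A gene's deposited count is its whole number of exon reads, without normalization. The authors' software also gave RPKM and TPM values, scaled by exon length and library total. For each gene it counted intron reads, exon reads with 1 mapping place and reads across exon junctions. The shares of such reads were computed here from these counts. Software version and genome build are not given in the sources used here.

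Counts were compared with edgeR 4.0.16 (quasi-likelihood, R 4.3.3, TMM, filterByExpr with a minimum count of 10, no covariate), with standard errors from the F statistic. Ratios and shares used deposited RPKM and two-sided exact permutation tests (SciPy 1.17.1). The limit of detection was taken as 3 reads, 0.127 to 0.163 CPM. Alternatives were DESeq2 1.42.0, other scalings, filters and read classes, limma 3.58.1 on log2(RPKM + 1) or log2(TPM + 1), the replicate block, and each library left out. In simulated data with 200 of 15556 genes changed, edgeR recovered 95 of 100 at a log2 change of 1 and 100 of 100 at 2, with 10 false calls. Every simulated gene had the same dispersion, only well-covered genes were changed, and no pairing was simulated. How often changes are recovered at the spread of each member was therefore not tested. No 2 libraries of the 15 pairs were identical.

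Replicate numbers come from the sample titles, which do not say what a number shares. With group means removed, log2 CPM of the libraries correlated at 0.324, 0.201 and 0.161 for equal numbers and -0.239 to 0.0754 otherwise, so the numbers were taken to pair the libraries. Deviations from a group mean cancel within the group, so unequal numbers tend below 0 where equal ones are above it. The contrast between them is therefore partly set by the calculation. The members and gene lists were chosen with earlier results of these data known. Every member is named, and of each list of pathway genes the smallest and largest change, all called genes where 6 or fewer and otherwise the 3 with the smallest p each way. The other list and marker genes named, the ratios of *cyp7a1* to *cyp8b1* and *hsd3b7* and the sums with relatives were chosen after values were seen. Of the listed genes, 1 is counted but not reported here. Relatives were named from a table of Ensembl identifiers. Markers of pancreas, interrenal, macrophage, muscle and kidney are in the last part. Plots used matplotlib 3.10.9.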

Additional observations from a re-analysis of the deposited data

How the results depend on the processing

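*cyp7a1*, *cyp27a7* and the relative *si:dkey-91i10.3* kept their direction and their call under all 16 alternatives. *cyp8b1* was called with DESeq2 (log2 fold change 0.76) and with the replicate block (0.76), and ranged from 0.46 to 1.06 with single libraries left out. *hsd3b7* was called lower with library totals and no scaling factor (-0.73), in limma on log2(RPKM + 1) (-0.71) and on log2(TPM + 1) (-0.69), and ranged from -0.60 to -0.43 with single libraries left out, so that 1 member was called lower in each of these 3 settings and 0 to 1 with a library left out. These settings moved the median of all genes by -0.22, -0.13 and -0.14 relative to TMM. *cyp27a1.4* ranged from -0.11 to 0.0073, *cyp7b1* from -0.17 to 0.0049 and *abcb11b* from -0.32 to 0.046 with a library left out. *CYP27A1 (1 of many)* was below 0 with upper-quartile scaling (-0.013), no scaling factor (-0.18), uniquely mapped reads (-0.016), RPKM (-0.14) and TPM (-0.13), and *scaf4a* with no scaling factor (-0.045), RPKM (-0.028) and TPM (-0.0086).

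Over all tested genes, 533 were called higher and 412 lower (56.4% higher). The counts were 321 and 1511 (17.5%) with no scaling factor, 260 and 563 (31.6%) in limma on RPKM, 297 and 778 (27.6%) on TPM, 452 and 538 (45.7%) with upper-quartile scaling and 669 and 699 (48.9%) with the replicate block, and 401 to 530 were higher and 189 to 340 lower with single libraries left out. List medians moved to 0.17 (no scaling factor) and 0.17 (RPKM) for side-chain genes, to 0.28 (upper quartile), 0.11 (no scaling factor) and 0.10 (RPKM) for regulators, to -0.21 (no scaling factor) and -0.18 (RPKM) for transport, and to 0.33 (RPKM) for the other *cyp8b* genes. Called side-chain genes numbered 7 higher with no scaling factor and 6 on RPKM and on TPM instead of 10, and called hepatocyte markers 6, 7 and 8 instead of 11. The replicate block changed the calls of *cyp8b1*, *cyp8b2*, *fgf19*, *fabp2*, *srd5a1*, *stard5*, *cdh17* and the intestinal marker called beside *fabp2*. It changed no call of another gene named in the text. *cyp27a1.2* rested on 18 to 39 reads a library, and how far the test recovers changes of its size at that depth was not simulated.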

Other observations

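Exocrine pancreas markers summed to 10.8 to 108 CPM in DMSO and 13.3 to 24.9 CPM in GW7647, with the highest value in DMSO replicate 2. Muscle markers summed to 7.56 to 33.4 CPM and 6.05 to 15.9 CPM. Interrenal markers, of interest because that gland holds other sterol-metabolizing enzymes, summed to 4.46 to 7.09 CPM and 3.002 to 5.49 CPM, and *cyp21a2* had 0 reads throughout. Macrophage markers summed to 92.7 to 113 CPM and 86.4 to 96.1 CPM, and kidney tubule markers to 229 to 303 CPM and 136 to 211 CPM, with *slc12a1* and *slc12a3* at 0 reads. Nearly the whole kidney sum came from *cdh17*, at 243 ± 33.7 CPM in DMSO and 158 ± 38.1 CPM in GW7647 (SD, n = 3). Every GW7647 library was below every DMSO library for *cdh17* (-0.62, adjusted p = 0.059 in edgeR). It was called lower under 8 of the 16 alternatives. Among these were the replicate block (adjusted p = 0.0014 in edgeR), DESeq2 (adjusted p = 0.0062) and leaving out GW7647 replicate 3 (adjusted p = 0.026 in edgeR). Tested were 9 pancreas, 8 macrophage, 6 muscle and 5 kidney markers and 1 interrenal marker. In edgeR, 1 marker of these 5 lists was called, beside 3.39% of all tested genes called higher and 2.62% lower. It was the macrophage marker *cd74a*, which was lower (-1.66, adjusted p = 0.035 in edgeR). The call of *cd74a* was lost (adjusted p = 0.062 to 0.11) on leaving out any of 4 libraries, which were replicates 1 and 2 of either group.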
